A study of Mus musculus with 14 samples.

Results

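The genes described here encode the subunits of the receptors for glutamate and GABA in the mouse nucleus accumbens, a part of the ventral striatum that belongs to the reward circuit. They were selected by name and biotype: protein-coding genes with a symbol of the Gria, Grid, Grik, Grin, Grm, Gabr or Gabbr families. The set was chosen with earlier results of these data known. The table of the authors' comparison held 37 such genes among 13130 genes. By the same name rule GENCODE annotates 47 protein-coding genes, and the other 10 (Gabra6, Gabre, Gabrp, Gabrq, Gabrr1, Gabrr2, Gabrr3, Grin3b, Grm6 and Grm8) were not analysed here. The samples were 7 C57BL/6 mice injected with AAV-Cre in the nucleus accumbens and 7 injected with AAV-GFP. Mice of both groups carried loxP-flanked Tet1 alleles (labelled TET1 loxp/loxp). AAV-Cre delivers the recombinase that removes loxP-flanked DNA, and AAV-GFP delivers a fluorescent protein. The nucleus accumbens was collected 4 weeks after the virus, and every mouse had a library of its own. The sources used here do not state the promoter or serotype of the viruses, the cells they reached or the age of the mice. The series title speaks of stress responses, but the labels name no stress exposure for these mice.

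Glutamate is the main excitatory transmitter of the brain. The nucleus accumbens receives it from the cortex, hippocampus, amygdala and thalamus, while most of its own neurons, the medium spiny projection neurons, release GABA. AMPA, kainate and NMDA receptors are cation channels built from several subunits, delta subunits organise synapses, and metabotropic receptors act through G proteins. GABA-A receptors are chloride channels assembled from alpha, beta and gamma or delta subunits, and GABA-B receptors are G protein-coupled pairs.

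Tet1 acts on methylated cytosine, which in mammals lies mostly in the dinucleotide CG, so the CG content of the members' promoters is shown first. RefSeq start sites (GRCm38.p6) were matched for 22 of the 37 genes. The 250 bases before the start held a median of 15.5 CG dinucleotides over these 22 genes, between 0 (Gabra3) and 42 (Grik3). Over 9188 protein-coding genes of the table with such a window the median was 16, and 99.3% held at least 1. CG reads the same on both strands, and where a gene had several start sites the first listed was used. The next lines give 3 of these stretches, 5′ to 3′ on the gene's strand, with each CG in capitals. Grin2c is shown as a gene with an unadjusted p under 0.05, Grm2 as the member of lowest fold change, and Gria2 as the member of highest mean level before correction for length.
Grin2c (chr11:115267244-115267493, minus strand, 15 CG): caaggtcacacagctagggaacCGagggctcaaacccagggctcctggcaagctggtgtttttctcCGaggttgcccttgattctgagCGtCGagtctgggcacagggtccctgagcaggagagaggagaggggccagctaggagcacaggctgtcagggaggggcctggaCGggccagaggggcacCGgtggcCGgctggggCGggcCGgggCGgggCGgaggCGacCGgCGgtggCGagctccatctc
Grm2 (chr9:106656110-106656359, minus strand, 16 CG): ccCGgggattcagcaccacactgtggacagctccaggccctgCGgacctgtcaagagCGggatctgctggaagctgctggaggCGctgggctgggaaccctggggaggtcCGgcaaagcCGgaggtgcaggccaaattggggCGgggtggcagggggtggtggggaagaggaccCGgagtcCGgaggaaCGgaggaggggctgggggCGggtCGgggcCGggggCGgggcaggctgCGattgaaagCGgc
Gria2 (chr3:80802836-80803085, minus strand, 19 CG): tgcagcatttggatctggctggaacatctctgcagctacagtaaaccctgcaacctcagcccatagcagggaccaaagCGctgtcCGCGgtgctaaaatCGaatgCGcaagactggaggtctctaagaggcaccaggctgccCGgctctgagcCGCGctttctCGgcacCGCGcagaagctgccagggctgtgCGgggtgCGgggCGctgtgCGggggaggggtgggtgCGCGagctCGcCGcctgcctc
No annotated gene of GENCODE M21 overlapped these 3 stretches. Methylation was not measured, and the letters of a window say nothing of its state in these mice.

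Related subunits have similar sequences, and reads that fit several genes can be hard to assign. Among 666 pairs of the 37 coding sequences, 0 shared an identical stretch of 50 bases. The longest stretch that Gria3 shared with another member had 37 bases and lay in Gria4, at chrX:41669545-41669581 on the plus strand and chr9:4427064-4427100 on the minus strand of GRCm38. It is shown because Gria3 is the member of smallest p, and a read inside it could not be told from a Gria4 read.
Gria3 and Gria4: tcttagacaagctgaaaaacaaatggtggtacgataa
Exons of 10 members overlapped exons of a gene on the opposite strand, miRNAs left aside. The sources used here do not say whether counting used strand, so reads of such pairs may not be told apart. Grin1 shared 1307 bases with the antisense gene Grin1os, whose log2 fold change was -0.15, with a standard error of 0.23, in the authors' deposited table.

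Fold changes here are log2 values of AAV-Cre over AAV-GFP, a direction taken from the name of the table. The standard error, given after ±, was derived from each fold change and its t, and the 95% limits from it with 15.1 degrees of freedom. The table gives no value per library, so the level in each mouse, the overlap of the groups and outlying mice cannot be shown.

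Tet1, the targeted gene, had a log2 fold change of -0.13 in the authors' deposited table (standard error 0.11, adjusted p = 0.921). The sources used here do not say which exons the loxP sites flank, so a value over the whole gene is a weak check of the deletion. Striatal projection neuron markers were abundant, with mean levels of log2 7.07 to 10.4, and 12 of 15 lay above 0 (median 0.09). Smallest in p among them in the authors' deposited table were Adora2a (0.14 ± 0.10), Meis2 (0.09 ± 0.07), Penk (0.14 ± 0.11) and Pdyn (0.14 ± 0.12). All 14 measured microglia markers were above 0 (median 0.42), 8 of them at an unadjusted p under 0.05. All 5 measured leukocyte markers were above 0 as well (median 1.67), each at such a p. Mean levels ran from log2 3.22 to 7.31 over the microglia markers and from -1.52 to 6.69 over the leukocyte markers. Medians of 11 oligodendrocyte, 8 oligodendrocyte precursor and 10 endothelial markers were 0.05, 0.05 and 0.18, and 2 of the endothelial ones were higher at that p. Each value is relative to the rest of its library, and the part of these cell types in the receptor genes' values was not tested.

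None of the 37 receptor genes differed between AAV-Cre and AAV-GFP at an adjusted p under 0.05, where 0% of all genes did. Their adjusted p in the authors' deposited table ran from 0.919 to 0.9995. At an unadjusted p under 0.05 the authors' moderated test gave 2 members lower in AAV-Cre (Gria3 and Grin2c), or 5.41% of them, where 0.533% of all genes were lower at that p. It gave 0 members higher, where 4.62% of all genes were. At an unadjusted p under 0.01, 0 members were lower. The share of all genes lower at 0.01 was not computed and is at most the 0.533% at 0.05. Of the 37 fold changes 27 lay below 0, or 73.0%, against 40.9% of all genes. Their median log2 fold change was -0.06, and that of all genes 0.02. The members share the same mice and are not independent of each other, and these shares were not tested. In such bulk tissue, fewer cells of a type and less RNA per cell cannot be told apart.

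**Figure D1:**
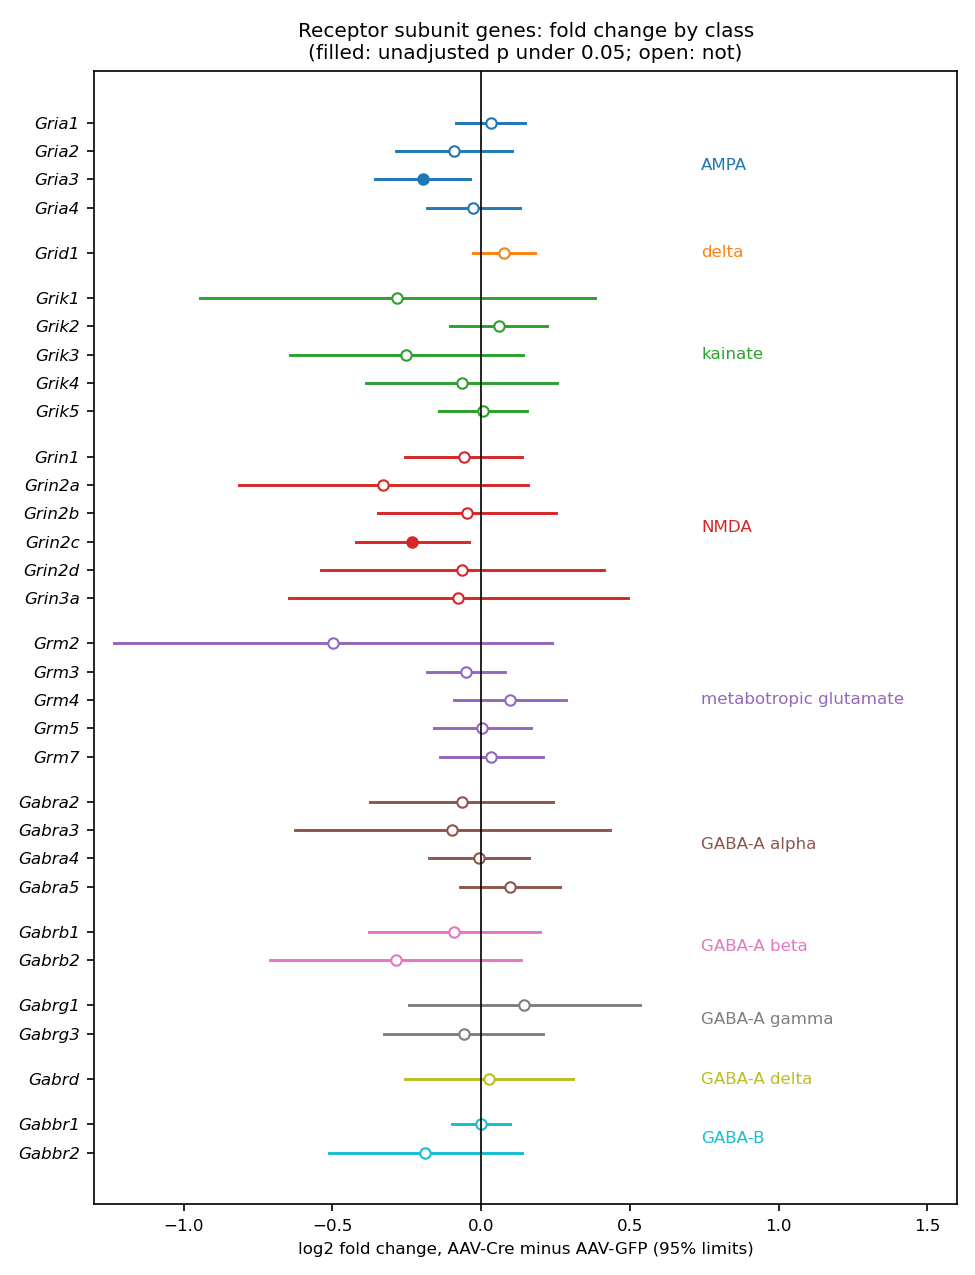
Log2 fold change of 32 of the 37 receptor genes, AAV-Cre minus AAV-GFP, on the horizontal axis, with 95% limits as lines and genes grouped by receptor class down the page. Filled points mark Gria3 and Grin2c, whose limits exclude 0, and the limits of the other 30 genes shown include it.

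AMPA receptors carry most fast excitation, and all 4 of their subunit genes were measured. Gria3, on the X chromosome from 41400854 to 41678601 (GRCm38, plus strand), stood at a log2 fold change of -0.20 ± 0.08 in the authors' deposited table. That is a change of -12.7%, with limits from -21.9% to -2.49% (unadjusted p = 0.0194, adjusted p = 0.919 from the authors' moderated test). The other 3 genes had limits on both sides of 0. Gria1, the most abundant AMPA subunit per length in these samples, stood at 0.03 ± 0.05 in the authors' deposited table. Gria2, whose edited product keeps calcium out of the channel, had -0.09 ± 0.09 in the authors' deposited table, with limits from -17.9% to 7.48% (unadjusted p = 0.338). Gria4 was at -0.03 ± 0.07 in the authors' deposited table. Gria3 alone of the 4 was past the unadjusted threshold, but whether its fold change differs from theirs was not tested.

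The delta subunits bind cerebellin proteins released from the presynaptic side. Grid1 had a log2 fold change of 0.08 ± 0.05 in the authors' deposited table, with limits from -1.83% to 13.3% (unadjusted p = 0.134).

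Kainate receptors modulate transmission on both sides of the synapse. The median over their 5 genes was -0.06, with 3 below 0 (against 40.9% of all genes) and 0 at an unadjusted p under 0.05. The member of smallest p was Grik3, at -0.25 ± 0.18 in the authors' deposited table, with limits from -36.0% to 10.2% (unadjusted p = 0.191). Grik1, the least abundant kainate subunit per length, had -0.28 ± 0.31 in the authors' deposited table. Grik2 was at 0.06 ± 0.08 and Grik4 at -0.06 ± 0.15 in the authors' deposited table. Grik5, which needs another subunit to form a channel and was the most abundant kainate gene per length, lay at 0.01 ± 0.07 in the authors' deposited table, with limits from -9.29% to 11.4% (unadjusted p = 0.916).

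NMDA receptors detect coincident activity and gate synaptic plasticity. All 6 measured NMDA genes had a fold change below 0, against 40.9% of all genes, with a median of -0.07. Among them only Grin2c had limits that exclude 0, and the count was not tested. Grin1, the subunit that every NMDA receptor contains, stood at -0.06 ± 0.09 in the authors' deposited table, with limits from -16.2% to 10.02%. Grin2c, on chromosome 11 from 115249169 to 115267243 (GRCm38, minus strand), had -0.23 ± 0.09 in the authors' deposited table. That is a change of -14.8%, with limits from -25.3% to -2.84% (unadjusted p = 0.0202, adjusted p = 0.919 from the authors' moderated test). Its upstream sequence is the first of those printed above.

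Grin2c is best known from cerebellar granule cells and is also found in forebrain astrocytes. Of 12 astrocyte markers 9 lay above 0 and 3 below, with a median of 0.08. Their mean levels ran from log2 4.35 to 11.4, and 1 of them, Slc1a3, was higher at an unadjusted p under 0.05. Grin2a and Grin2b are the main partners of Grin1 in the forebrain. Grin2a was at -0.33 ± 0.23 in the authors' deposited table (unadjusted p = 0.170). Grin2b, the NMDA gene of highest mean level before correction for length, was at -0.05 ± 0.14 in the authors' deposited table, with limits from -21.3% to 19.1% (unadjusted p = 0.742). Grin2d was at -0.06 ± 0.22 in the authors' deposited table. Grin3a, which lowers the calcium entry of receptors that contain it, was at -0.08 ± 0.27 in the authors' deposited table.

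Metabotropic glutamate receptors split by the G protein they use. Grm5, which raises calcium through Gq and was the most abundant of the class per length, was at 0.004 ± 0.08 in the authors' deposited table, with limits from -10.5% to 12.4% (unadjusted p = 0.955). Grm2 and Grm3 act through inhibitory G proteins, Grm2 mainly on nerve terminals and Grm3 also in glia. Grm2 had the lowest fold change of all members, -0.50 ± 0.35 in the authors' deposited table, at a mean level of log2 2.14 before correction for length and with limits from -57.5% to 17.9% (unadjusted p = 0.170). Grm3 lay at -0.05 ± 0.06 in the authors' deposited table. The presynaptic receptors Grm4 and Grm7 were at 0.10 ± 0.09 and 0.03 ± 0.08 in the authors' deposited table. Grm7 overlaps the antisense gene Gm20387 by 130 exonic bases, which had -0.23 in the authors' deposited table (unadjusted p = 0.0360).

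GABA-A subunit genes gave 9 of 12 fold changes below 0, against 40.9% of all genes. They gave 0 at an unadjusted p under 0.05, in either direction. Gabrb2, the beta subunit of much of the synaptic GABA-A receptor of the adult brain, was at -0.29 ± 0.20 in the authors' deposited table, with limits from -38.8% to 9.72% (unadjusted p = 0.167). It was the beta gene of smallest p, and its limits include 0.

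Gabrg1 (0.15 ± 0.18), Gabra2 (-0.06 ± 0.14), Gabra4 (-0.01 ± 0.08) and Gabrb1 (-0.09 ± 0.13), all on chromosome 5, each had limits that include 0, with log2 fold changes from the authors' deposited table. Gabra4, whose product joins the delta subunit in receptors outside synapses of medium spiny neurons, begins head to head with Gabrb1, and the 2 genes share 46 exonic bases. Gabra4 was the most abundant alpha gene per length, with limits from -11.4% to 11.7% (unadjusted p = 0.930). Gabrg3 (-0.06 ± 0.13) and Gabra5 (0.10 ± 0.08), both on chromosome 7, also had limits that include 0, with fold changes from the authors' deposited table.

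Gabra3 on the X chromosome was at -0.10 ± 0.25 in the authors' deposited table. Gabrd, the extrasynaptic delta subunit, was at 0.03 ± 0.13 in the authors' deposited table, with limits from -16.1% to 24.0% (unadjusted p = 0.835). The GABA-B receptor is a pair of unlike subunits: Gabbr1 binds GABA, and Gabbr2 brings the pair to the surface and couples it to the G protein. Gabbr1 had the smallest standard error of all members, with a fold change of -0.0004 ± 0.05 in the authors' deposited table and limits from -6.49% to 6.88% (unadjusted p = 0.993). Gabbr2 was at -0.19 ± 0.15 in the authors' deposited table, with limits from -29.8% to 9.94% (unadjusted p = 0.237).

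The levels that follow are the mean log2 level over all mice per kb of exon, which has no error in the table. The order without correction for length can differ, as for Grin2b (log2 8.51) and Grin1 (8.20). Every member had a mean level above 1 CPM. Gabbr1 (log2 6.77 per kb), Gria1 (6.55) and Gria2 (5.95) were the highest. Among the next were Grik5 (5.68), Gabrd (5.43) and Grm5 (5.37). Among NMDA genes the order was Grin1 (4.92), Grin2b (3.88), Grin2c (3.25), Grin3a (1.35), Grin2d (1.30) and Grin2a (0.28) on the same scale. Of 4 alpha subunits, Gabra4 (4.93) was above Gabra3 (4.04), Gabra5 (3.86) and Gabra2 (3.63). Grik1 (-0.29) and Grm2 (-0.15) closed the list. The exonic length joins all annotated transcripts, so a gene with long alternative ends is placed too low on this scale. Grin2b (24.8 kb), Grin2a (17.9 kb) and Gria2 (15.5 kb) were among the members of longest exonic length.

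**Figure D2:**
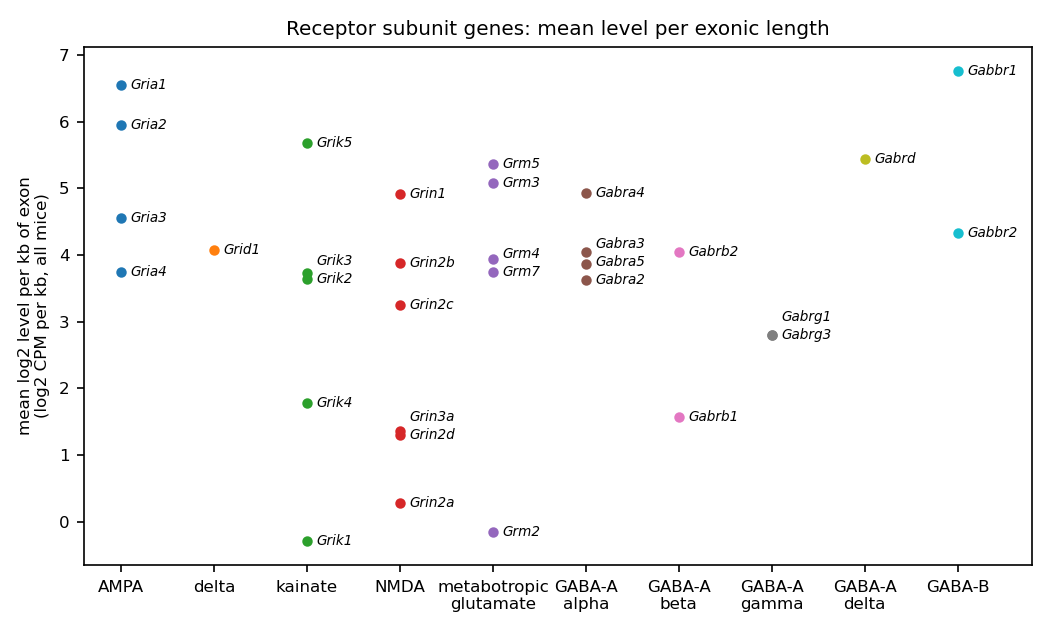
Mean log2 level per kb of exon (log2 CPM per kb, all mice together) on the vertical axis for 32 of the 37 receptor genes, by class. Gabbr1 and Gria1 stand highest at 6.77 and 6.55, and Grik1 and Grm2 lowest at -0.29 and -0.15.

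How closely a member is measured differed widely. The standard error ran from 0.045 (Gabbr1, mean log2 level 9.7) to 0.346 (Grm2, mean log2 level 2.1), which are genes of unlike level. It was set beside the median of the 200 genes nearest in mean level, and the median ratio was 1.65. The ratio exceeded 2 for 15 members, among them Grin3a (4.08), Gabra3 (4.03), Grin2a (3.10) and Gabrg1 (2.97). The share of all genes with such a ratio was not computed. Among 328 genes around a mean log2 level of 6.58, the median standard error was 0.063 and the 90th percentile 0.112. Of the 15 members over 2, 14 had a fold change below 0, with a median of -0.14, and all 6 members below -0.25 were among them. A larger standard error gives a larger fold change at the same t, so the size of these fold changes is in part fixed by the split. The unadjusted p of the 6, from the authors' moderated test, ran from 0.167 to 0.380. Of the other 22 genes 13 lay below 0, with a median of -0.002. Of the 13 members whose standard error was at most the median of all genes, 7 lay below 0. The share below 0 of all genes with such a standard error was not computed. The ratio of 2 was chosen after the values were seen, and the split has no test.

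The marker lists were read for the same 2 values. Cortical excitatory neuron markers, of cells that border the region, had a median log2 fold change of -0.36, with 10 of 12 measured markers below 0. Their standard errors were 2.82 times those of genes at their level in the median. Of the 12, 8 had a ratio over 2. Smallest in p among them were Nptx1 (-0.65 ± 0.45), Tle4 (0.11 ± 0.08), Fezf2 (-0.42 ± 0.32) and Rorb (-0.13 ± 0.12) in the authors' deposited table. Slc17a7, the vesicular glutamate transporter of cortical neurons, was named as a defining marker after its value was seen. It had -0.82 ± 1.14 in the authors' deposited table, at a mean level of log2 6.58. The markers' mean levels ran from log2 1.17 to 6.98, and their part in the members' values was not tested. Of 15 interneuron markers 12 lay below 0, with a median of -0.04 and a median ratio of 2.18, and 10 had a ratio over 2. High ratios also went with fold changes above 0. The median ratio was 2.59 over the 14 microglia markers, 11 of them over 2, and 3.20 over the 5 leukocyte markers, 3 of them over 2. All of both lists lay above 0. Striatal projection neuron markers, 12 of 15 above 0, had a median ratio of 1.67, near the members' 1.65. A ratio over 2 was held by 2 of these 15 markers, against 15 of the 37 members. The 11 oligodendrocyte markers, all above 0, had a median ratio of 1.88, with 3 over 2.

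**Figure D3:**
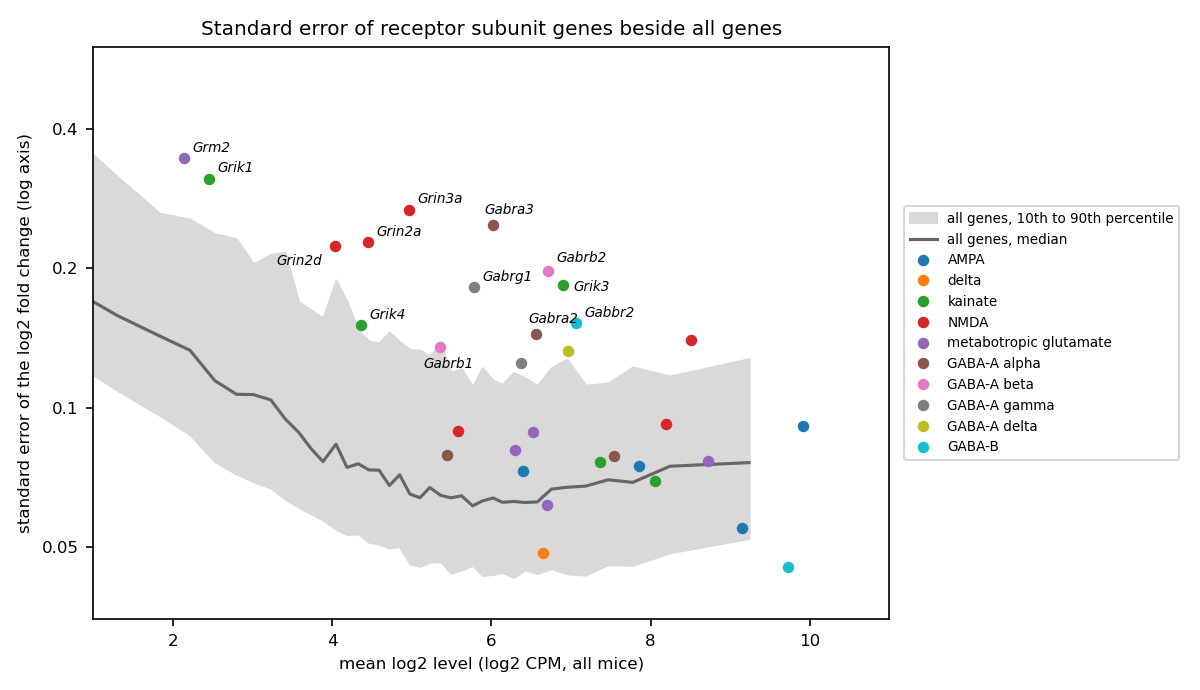
Standard error of the log2 fold change (vertical, log axis) against mean log2 level (log2 CPM, all mice) for 32 of the 37 receptor genes, coloured by class, with the median (line) and the 10th to 90th percentile (band) of all genes. The 13 named genes have more than 2 times the standard error of genes at their level, and Gabbr1 at 0.045 lies lowest.

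The limits say which sizes of change the data can bound. For 17 of the 37 genes the 95% limits lay within a 1.25-fold change in both directions, among them Gria1, Gria4, Grik5, Grm3, Grm5, Gabra4 and Gabbr1. For 8 genes the lower limit passed a 1.5-fold decrease, and for 0 genes did the upper limit pass a 1.5-fold increase. These limits are per gene and carry no correction for the number of genes. The shares of all genes with such limits were not computed. The median standard error was 0.104 over the members and 0.079 over all genes.

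The receptor genes are long. Their median genomic span was 224.2 kb, against 25.5 kb for protein-coding genes of the table, and 25 of the 37 (67.6%) spanned at least 100 kb, against 15.6%. Of all protein-coding genes of at least 100 kb, 59.9% had a fold change below 0, and of the shorter ones 36.3%, with medians of -0.02 and 0.03. Among the members, 19 of the 25 long genes (76.0%) and 8 of the 12 shorter ones (66.7%) lay below 0, with medians of -0.06 and -0.03. The part of gene length in the members' values was not tested.

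Genes that act with these receptors were read from lists chosen by function. For comparison, 40.9% of all genes lay below 0. At an unadjusted p under 0.05, 0.533% of all genes were lower and 4.62% higher. AMPA and kainate auxiliary subunits, which set receptor gating and surface number, lay below 0 in 18 of 25, with a median of -0.10 and 0 at an unadjusted p under 0.05. Smallest in p were the TARP genes Cacng2 (-0.17 ± 0.09) and Cacng4 (0.16 ± 0.09), then Shisa6 (-0.34 ± 0.20) and the pentraxin gene Nptx1, also a cortical marker (-0.65 ± 0.45), in the authors' deposited table. Glutamate receptor scaffold genes were below 0 in 15 of 26 (median -0.01) with 0 past that p, led in the authors' deposited table by Dlgap1 (-0.27 ± 0.15), Shank1 (-0.25 ± 0.15), Homer2 (-0.36 ± 0.23) and Nsf (-0.16 ± 0.12).

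Glutamate release and clearance genes gave 2 of 14 higher at an unadjusted p under 0.05 and 0 lower. These were the cystine-glutamate exchanger Slc7a11 (0.33 ± 0.13, p = 0.0217) and the astrocytic glutamate transporter Slc1a3 (0.20 ± 0.08, p = 0.0271), each with an adjusted p of 0.919 in the authors' deposited table. The glutaminase Gls2 (-0.28 ± 0.14) and the glutamine transporter Slc38a2 (-0.13 ± 0.07) came next in the authors' deposited table, and the list's median was -0.07. Slc1a3 is also an astrocyte marker.

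On the GABA side, 11 of 25 genes of receptor assembly and trafficking lay below 0 (median 0.01), and 4 of 9 genes of GABA synthesis and clearance (median 0.002), with 0 of either at an unadjusted p under 0.05. Gabarap (0.11 ± 0.05), which binds the gamma subunits, the GABA-B auxiliary subunit Kctd12 (0.15 ± 0.09), Slitrk3 (-0.13 ± 0.08) and Plcl2 (0.09 ± 0.06) led the first in the authors' deposited table. The vesicular GABA transporter Slc32a1 (0.08 ± 0.07), Aldh5a1 (-0.05 ± 0.06) and Aldh9a1 (0.05 ± 0.07) were among those of smallest p in the second in the authors' deposited table. Of 8 chloride transport genes, 6 lay below 0 (median -0.05) and 1 was higher at an unadjusted p under 0.05. That gene was Slc12a7, at 0.47 ± 0.14 in the authors' deposited table (p = 0.00396, adjusted p = 0.751). Wnk3 (-0.06 ± 0.08) and Slc12a5 (-0.04 ± 0.06), the chloride exporter of mature neurons, were next to be named from the authors' deposited table.

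**Figure D4:**
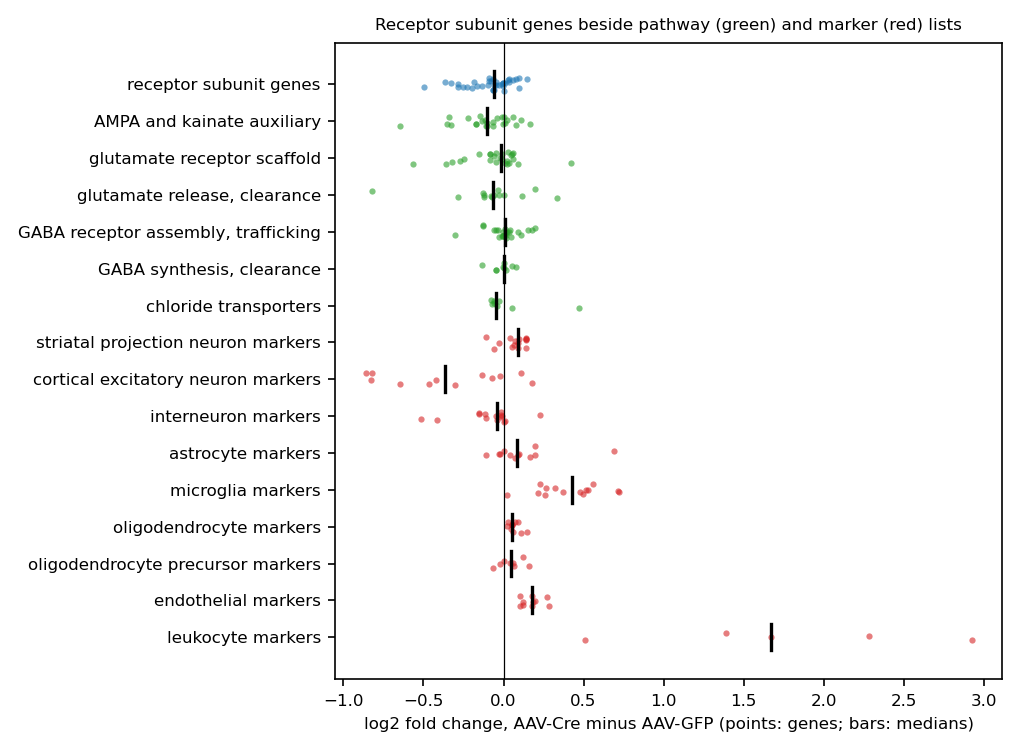
Log2 fold change, AAV-Cre minus AAV-GFP, of the 37 receptor genes (blue), of 6 lists of genes that act with them (green) and of 9 lists of cell type markers (red), with each gene as a point and each median as a bar. The receptor genes' median is -0.06, the auxiliary subunits' -0.10, the cortical markers' -0.36 and the leukocyte markers' 1.67.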

How the data were processed

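TruSeq mRNA libraries of 14 mice, 7 AAV-Cre and 7 AAV-GFP, were sequenced, per the labels' protocols. The submitters' processing notes name TopHat2 2.0.9 with Bowtie2 2.1.0, and as builds both GRCm38 and mm10. Which counting tool, annotation, normalization, filter and model the authors used was not given in the sources used here. Per the file headers, the deposited log2 columns are a fold change and a mean level, the score columns the moderated t and the log-odds (not used), and the p-value columns an unadjusted and an adjusted p-value, over 13130 genes. The headers are those of limma. The linear levels sum to 991364, so levels were read as log2 CPM. The direction is taken from the table's name. Depth per library is unknown.

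Standard errors are the fold change divided by t. With 15.1 degrees of freedom t returns the deposited p-values to within 1e-06, and the adjusted ones equal the Benjamini-Hochberg adjustment to the same tolerance. Derivations were checked on simulated data. No test on single libraries was possible. Positions and lengths came from GENCODE M21 (GRCm38), where 13063 gene IDs matched. Full statistics were planned for members at an unadjusted p under 0.05, the smallest p and the highest mean level of each class, and up to 4 genes of smallest p per list. The members and lists were chosen with earlier results of these data known. Alternatives were another p threshold, other sets for the adjustment, a mean level of at least 1 CPM, centring on the median gene and a limit on the standard error. Software was scipy 1.17.1, numpy 2.4.6 and pandas 2.3.3 under Python 3.11.15, with matplotlib 3.10.9 for figures. Some genes that this rule names are counted in the totals but not reported here by name.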

Additional observations from a re-analysis of the deposited data

How the results depend on the processing

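Of 17 alternative values, 15 kept their direction and side of the threshold or, for counts, stayed within 1.5 times. Several of the 15 could not move, so the tally is no measure of robustness. With 0 members under 1 CPM, limiting the members to that level changed nothing. With 0 members higher at an unadjusted p under 0.05, 0 could be higher at 0.01. A median of -0.0004 in place of -0.06 also counts among the 15, since its direction was kept. At an unadjusted p under 0.01 the number of members lower in AAV-Cre was 0, in place of 2. The share of all genes lower at 0.01 was not computed and is at most the 0.533% lower at 0.05. With members limited to a standard error at most the median of all genes, 13 members were left, 7 with a fold change below 0 in place of 27 of 37, and their median was -0.0004. Fewer members enter that count by construction, and the share of all genes below 0 under that limit was not computed. Centring on the median gene (0.02) gave 29 members below 0 and a median of -0.08. It put Gria3 at -0.21 (p = 0.0118) and Grin2c at -0.25 (p = 0.0133), from the authors' standard errors and degrees of freedom. Centring lowers every fold change by the same amount, so by construction the share of all genes below 0 also rises above 40.9%. The smallest adjusted p of a member was 0.916 when adjusted over protein-coding genes and 0.928 over genes of at least 1 CPM, so 0 passed there and at a threshold of 0.1. No paired analysis was possible because the table holds no value per library, and for the same reason no mouse could be left out. The depth of each library is unknown, so its part in the standard errors was not tested.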
